A study of Mus musculus with 65 samples.

Results

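Some transcripts were found in most hematopoietic stem cells of the series, and this set of core transcripts is described here. A gene was counted as found in a cell when its deposited value was above 0, and it entered the set when it was found in at least 50 of the 65 cells. Of 18036 rows, 6826 had a value above 0 in any cell and 206 were found in at least 50 cells. Ribosomal protein, histone cluster, globin, proteasome, respiratory chain, translation factor, splicing factor and zinc finger families, a few named genes such as Malat1, Ftl1 and Actb, and chromosomes X and Y were left out by symbol or position. That removed 51 genes and left 155. The members were chosen by detection over all cells of both groups, so their number of cells is a description and not a finding.

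The cells were long-term hematopoietic stem cells from aged mice, older than 20 months, of the SCL-tTAxH2B-GFP strain, heterozygous for both transgenes. In such mice regulatory sequence of the SCL gene, active in stem and progenitor cells, drives a transactivator that turns on a histone H2B fused to GFP, and once the label is off each division thins it out. Marrow of the long leg bones was depleted of lineage-positive cells and sorted for the LSK CD34-/low Flk2- CD48- CD150+ phenotype. GFP-positive cells are called label-retaining (37 cells; 9, 9, 10 and 9 in biological repeats 1 to 4) and GFP-negative cells non-label-retaining (28 cells; 8, 4, 6 and 10). All cells of both groups then spent a night without growth factors at 3% oxygen before full-length cDNA was made from single cells. The sources used here give neither the time of the label switch nor the number of mice in a repeat.

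Every cell type keeps a basal programme running: protein synthesis and folding, ubiquitin tagging and lysosomal turnover of proteins, chromatin packaging, the actin skeleton and redox defence. Genes of that programme are often called housekeeping genes and serve as references in expression work. Stem cells in the marrow are mostly at rest and hold little RNA, so single-cell libraries from them miss many transcripts that are present.

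Total counts per cell ran from 27954 to 20516069 in label-retaining cells (median 264894) and from 86 to 661078 in non-label-retaining cells (median 118056). Only 4 cells, all non-label-retaining, had fewer than 10000 counts. All libraries carry the label of 1 sequencing run. The stem cell label was checked against fixed lists. The stem cell factors Hlf, Meis1 and Gata2 were found in 43, 36 and 34 cells, while Slamf1, which encodes the CD150 used in the sort, was found in 0 cells, as were Cd48 and Flt3. Of 34 stem cell identity genes 14 had a row, 13 had a count and 0 were core transcripts. Of the erythroid list 5 of 12 genes had a count, and Hba-a1 and Hbb-bs were found in 60 and 55 cells. Erythroid markers took 0.143 to 9.37% of counts over the label-retaining repeats and 0.386 to 3.18% over the non-label-retaining repeats, and Alas2, which marks committed erythroid cells, was found in 7 cells. Megakaryocyte markers, 4 of 12 with a count, took 0.0269 to 0.617% over the label-retaining repeats and 0.000963 to 0.226% over the non-label-retaining repeats, and the B cell list, also 4 of 12, took at most 0.545% and 0.318%. Endothelial and stromal markers took at most 0.0220%, and neutrophil, monocyte, mast cell and T cell marker genes at most 0.00618% of counts in any repeat and group. The part of these cell types in the results was not tested.

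Some of the counts below cannot be assigned to 1 gene from sequence alone. Gm10925 is a pseudogene on chromosome 1 (chr1:24613971-24614651, GRCm38), and its whole GENCODE transcript of 678 bases is identical to bases 1 to 678 of the mitochondrial gene mt-Atp6, which encodes a subunit of ATP synthase. Of the genes with any count, 0 lie on the mitochondrial genome. The first 120 bases, shared by both, are shown because reads from either gene look the same.
Gm10925 and mt-Atp6: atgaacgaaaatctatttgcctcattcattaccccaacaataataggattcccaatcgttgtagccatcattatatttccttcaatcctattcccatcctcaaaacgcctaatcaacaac

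Ctla2a and Ctla2b encode small inhibitors of cysteine proteases and lie close together on chromosome 13 (chr13:60934155-60936625 and chr13:60895351-60897934, GRCm38). Their coding sequences differ at 13 of the 339 bases compared, starting from the start codon of Ctla2b, which lies at base 73 of the coding sequence of Ctla2a. The first 90 of those bases are shown with the 5 differing bases in capitals.
Ctla2a: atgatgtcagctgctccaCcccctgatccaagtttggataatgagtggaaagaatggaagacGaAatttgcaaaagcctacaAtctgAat
Ctla2b: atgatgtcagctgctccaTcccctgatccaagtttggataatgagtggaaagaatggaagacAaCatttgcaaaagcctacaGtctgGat

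H3f3a (chr1:180802560-180813605) and H3f3b (chr11:116021961-116026039) both encode the same replacement form of histone H3, which is loaded into chromatin outside S phase as well as in it. Their coding sequences of 408 bases differ at 95 positions, more than between Ctla2a and Ctla2b. The first 90 coding bases are shown with the 20 differing bases in capitals.
H3f3a: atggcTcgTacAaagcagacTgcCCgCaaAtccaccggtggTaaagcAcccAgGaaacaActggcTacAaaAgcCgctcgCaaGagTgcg
H3f3b: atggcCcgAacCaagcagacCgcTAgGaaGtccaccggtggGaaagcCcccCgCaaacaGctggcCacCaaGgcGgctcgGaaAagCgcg

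The 155 core transcripts comprised 146 protein-coding genes, 6 long non-coding RNAs and 3 pseudogenes. They were found in a median of 56 cells (range 50 to 65), against a median of 10 cells over the 6728 named genes with any count. At the border of the rule, 8 members were found in exactly 50 cells. Among them were the RNA-binding protein gene Rbm25 (median 183 CPM over the 65 cells), the myosin light chain kinase Mylk4 (37.4 CPM), the mitochondrial calcium uniporter regulator Mcur1 (23.3 CPM), the pseudogene Gm15645 (22.0 CPM) and Wipf2, a partner of WASP proteins (18.2 CPM). CPM is the count of a gene relative to all counts of the same cell or sum, scaled to a fixed total. Just outside, 18 named genes were found in 49 cells, 15 of them not left out by symbol, led by the snoRNA host gene Gas5 (154 CPM), the tetraspanin Cd9 (88.7 CPM), the histone methyltransferase Kmt5b (74.8 CPM), the kinesin Kif5b (70.1 CPM) and Pbld1 (61.4 CPM).

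Of the core transcripts, 3 were found in all 65 cells, down to the cell with 86 counts: Inpp4a, Ogfrl1 and Slx1b. Inpp4a encodes a phosphatase of phosphoinositides, Slx1b a subunit of a structure-specific DNA nuclease, and Ogfrl1 a protein related to the opioid growth factor receptor. Their counts per cell were spread over orders of magnitude. Slx1b had 54 to 6833 counts (median 746) in label-retaining cells and 3 to 5858 (median 807) in non-label-retaining cells. Inpp4a had 5 to 3109 counts (median 341) in label-retaining cells and 1 to 3943 (median 382) in non-label-retaining cells. Ogfrl1 had 8.04 to 8208 counts (median 105) in label-retaining cells and 0.0556 to 402 (median 101) in non-label-retaining cells, where a value under 1 is less than a whole read. Both groups overlapped widely for all 3 genes.

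Another 3 members were missing from 1 non-label-retaining cell only: Ctla2a, Gm10925 and Tmf1, which encodes a Golgi protein. In label-retaining cells Ctla2a had a median of 3501 counts and Gm10925 of 3264, against 160 and 62 in non-label-retaining cells. Tmf1 had a median of 334 counts in label-retaining cells and 413 in non-label-retaining cells. Found in 63 cells were the RNA demethylase Alkbh5, the methyltransferase Bmt2, the cytoskeletal linker Dst, the antisense RNA Kcnq1ot1 of an imprinted locus, the ketosphinganine reductase Kdsr, the neuron navigator Nav1, the urokinase Plau, the metallophosphoesterase Tmppe and the DNA- and RNA-binding protein Tsn. Each of these 9 was found in all 37 label-retaining cells and in 26 of 28 non-label-retaining cells.

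**Figure D1:**
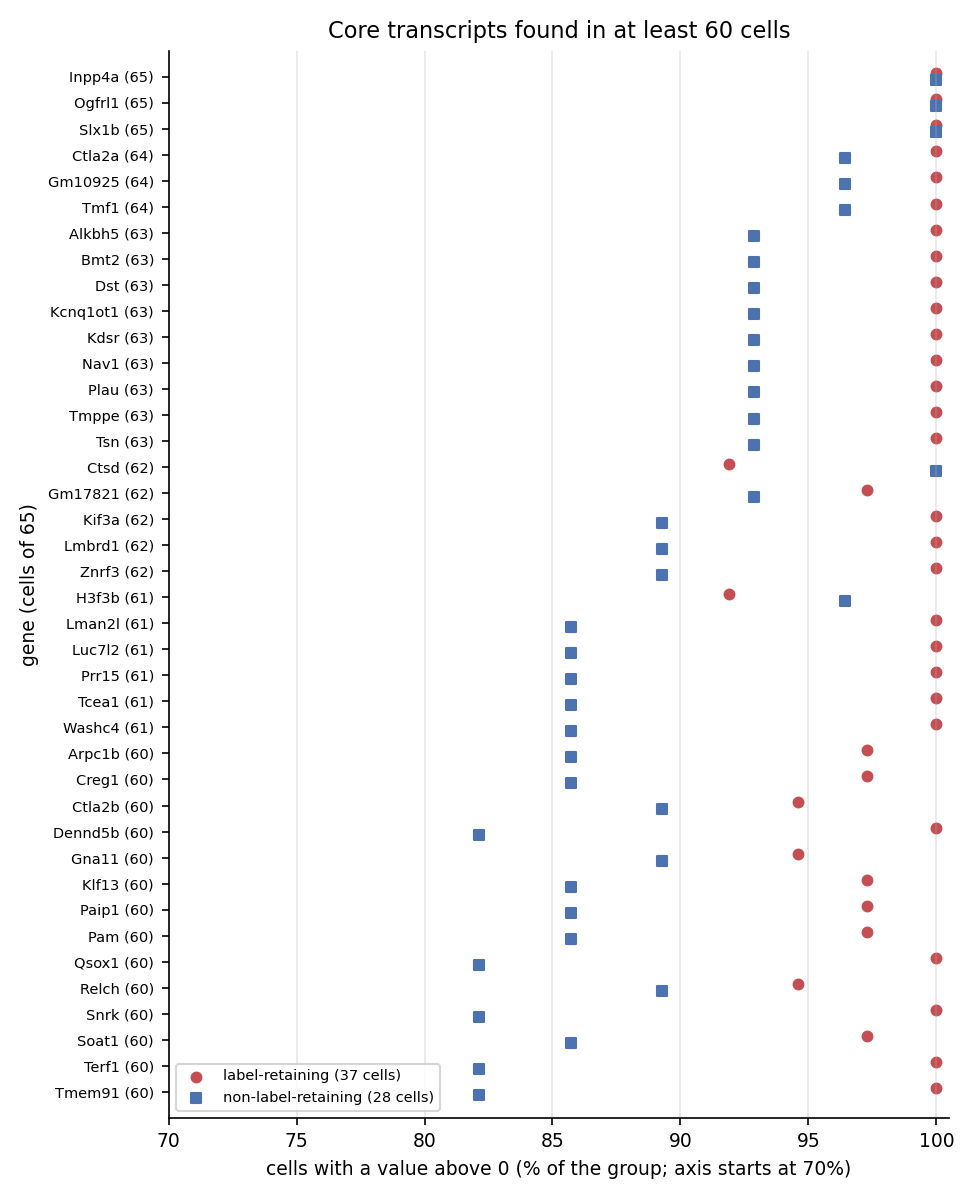
Share of cells in which each of the 40 core transcripts found in at least 60 cells had a value above 0, in label-retaining cells (circles, of 37) and non-label-retaining cells (squares, of 28). The horizontal axis is in percent and starts at 70%. Inpp4a, Ogfrl1 and Slx1b stand at 100% in both groups, and Ctsd and H3f3b are the genes shown with the larger share in non-label-retaining cells.

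Cells of 1 group within 1 repeat were next added up, giving 4 sums for either group, and levels are given as CPM of the sum in the order of repeats 1 to 4. Slx1b stood at 139, 385, 4704 and 9324 CPM in label-retaining cells, against 2490, 5122, 8564 and 8815 CPM in non-label-retaining cells. Inpp4a stood at 41.6, 313, 2891 and 5779 CPM in label-retaining cells, against 971, 1515, 6964 and 7913 CPM in non-label-retaining cells. Tmf1 stood at 124, 341, 1613 and 19228 CPM in label-retaining cells, against 1711, 8909, 2727 and 3036 CPM in non-label-retaining cells. For these genes label-retaining repeats 1 and 2 were the lowest sums, and repeats 3 and 4 overlapped with the other group. Those 2 sums were also the deepest, with 33760758 and 11794496 counts, against 194989 to 3062569 in the other 6 sums. The part of depth in these levels was not tested. A sum weighs its cells by their counts. Of the 33760758 counts of label-retaining repeat 1, 20516069 came from 1 cell. Of the 194989 counts of non-label-retaining repeat 2, 112781 came from 1 cell.

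The same 2 sums were the lowest for 5 further genes of the 12 found in the most cells (ties at 63 cells were broken by the median CPM over the cells). Plau stood at 20.7, 63.9, 438 and 681 CPM in label-retaining cells, against 421, 1167, 688 and 641 CPM in non-label-retaining cells. Alkbh5 stood at 104, 201, 458 and 875 CPM in label-retaining cells, against 429, 949, 783 and 793 CPM in non-label-retaining cells. Tmppe stood at 29.7, 88.3, 379 and 698 CPM in label-retaining cells, against 659, 1238, 513 and 1688 CPM in non-label-retaining cells. Dst, the giant linker of cytoskeletal filaments, reached its highest level in label-retaining repeat 3. It stood at 6.41, 26.4, 1234 and 714 CPM in label-retaining cells, against 72.1, 482, 205 and 243 CPM in non-label-retaining cells. Kcnq1ot1 stood at 272, 620, 985 and 10138 CPM in label-retaining cells, against 6644, 27397, 1107 and 703 CPM in non-label-retaining cells, so its label-retaining repeat 2 lay close to non-label-retaining repeat 4.

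The other 4 of the 12 genes did not share that order. In Ogfrl1 and Bmt2 the same 2 sums were the lowest, but repeat 2 lay below repeat 1. Ctla2a stood at 20588, 19788, 32563 and 5050 CPM in label-retaining cells, against 12443, 2226, 42778 and 23434 CPM in non-label-retaining cells. Gm10925 stood at 2830, 13329, 21058 and 14263 CPM in label-retaining cells, against 8678, 733, 13821 and 7590 CPM in non-label-retaining cells. Ctla2a and Gm10925 were abundant in all 8 sums. Ogfrl1 stood at 324, 60.8, 454 and 983 CPM in label-retaining cells, against 503, 824, 737 and 785 CPM in non-label-retaining cells, and Bmt2 at 500, 124, 926 and 1632 CPM, against 867, 1591, 1406 and 2100 CPM. The groups overlapped for each of the 12 genes. Of the 3 others found in 63 cells, Kdsr and Nav1 were lower in level, and Tsn stood at 678, 625, 761 and 88.0 CPM in label-retaining cells, against 162, 30.8, 52.8 and 47.2 CPM in non-label-retaining cells. Tsn was higher in the label-retaining sum of each repeat by CPM, with an overlap through label-retaining repeat 4.

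**Figure D2:**
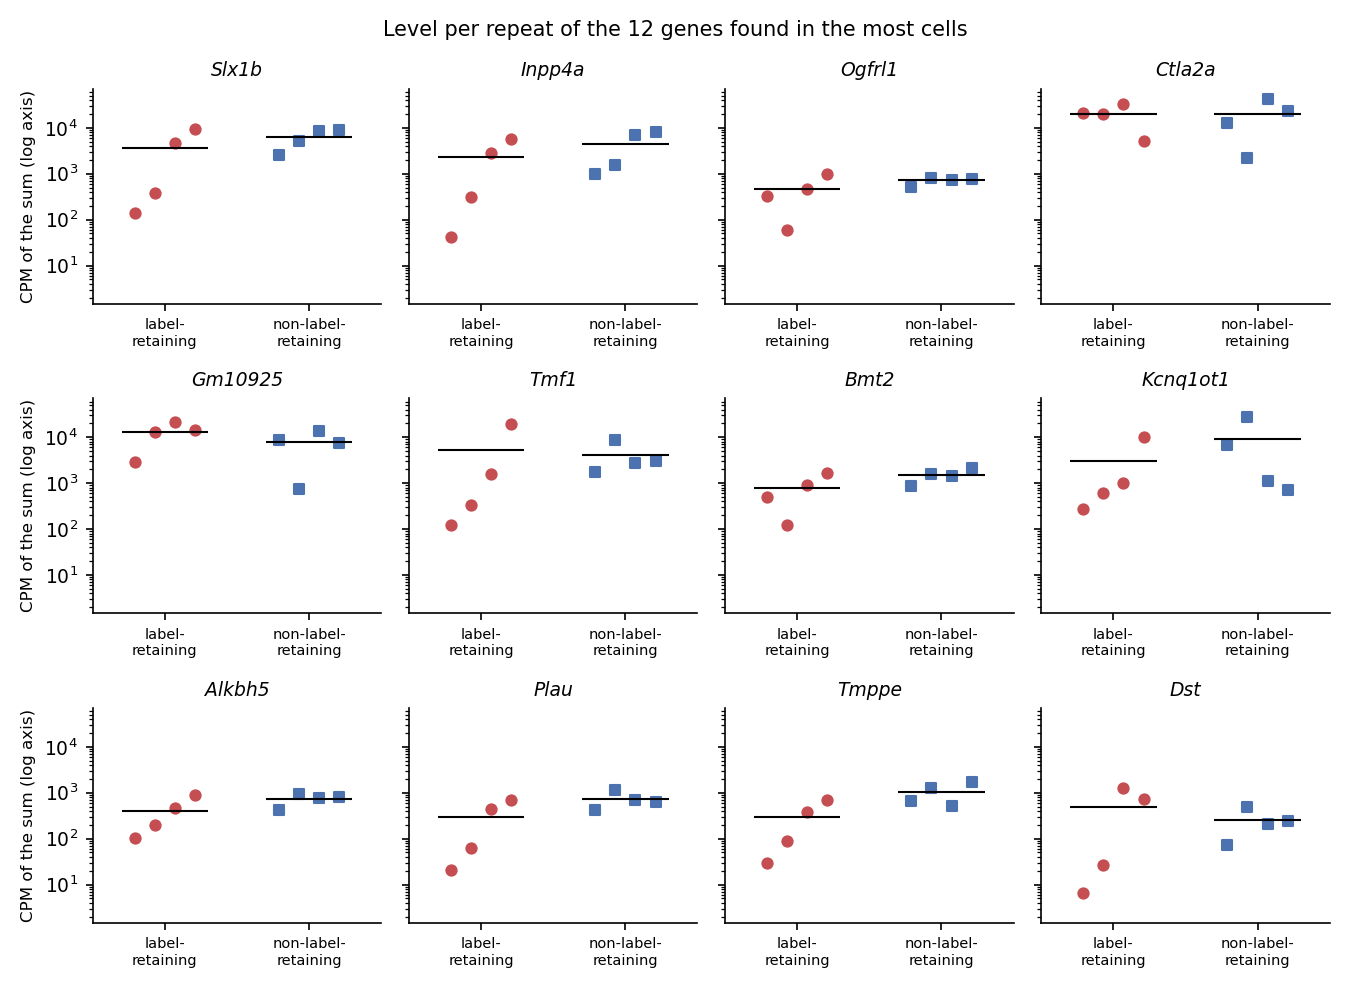
Level of the 12 core transcripts found in the most cells (ties at 63 cells by median CPM), as CPM of each sum on a log axis, with label-retaining repeats 1 to 4 as circles on the left and non-label-retaining repeats 1 to 4 as squares on the right of each panel. Lines are the means of 4 repeats. Slx1b, Inpp4a, Tmf1, Plau, Alkbh5, Tmppe, Dst, Kcnq1ot1, Ogfrl1 and Bmt2 have their lowest values in label-retaining repeats 1 and 2. The groups overlap in every panel.

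Per kilobase of the longest GENCODE transcript, so that genes can be set side by side, the mean level over the 8 sums was highest for Gm10925 at 15174 and Ctla2a at 14464 CPM per kb. Next came the pseudogene Gm17821 (4045 CPM per kb), the autophagy receptor Sqstm1 (3916), the ubiquitin-like fusion gene Fau (3362), the polyubiquitin gene Ubb (3135), Ctla2b (3053), Gm20594 (2899), the lysosomal protease Ctsd (2296), H3f3b (2144) and the calmodulin gene Calm2 (2110). The median core transcript stood at 76.3 CPM per kb, against 5.07 over 6665 genes with any count and a transcript. The low end was reached by BC024978 at 1.71 CPM per kb.

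Role lists accounted for 28 of the 155 genes, and the others belonged to no list. In the ubiquitin list 11 of 21 genes had a row and 2 were core transcripts. Ubb, which encodes chained ubiquitin, was found in 57 cells and stood at 2772, 4392, 2520 and 4459 CPM in label-retaining cells, against 3516, 16284, 1982 and 1672 CPM in non-label-retaining cells. Fau was found in 54 cells and stood at 590, 1466, 2167 and 703 CPM in label-retaining cells, against 1075, 13025, 973 and 13.6 CPM in non-label-retaining cells. The 4 label-retaining sums of Ubb lay within a narrow range, although single cells did not, and both genes had their highest sum in non-label-retaining repeat 2, which holds 4 cells.

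Among the folding genes 18 of 38 had a row and 2 were core transcripts. Ppia, a prolyl isomerase much used as a reference gene, was found in 54 cells and stood at 2355, 3640, 1204 and 4221 CPM in label-retaining cells, against 4596, 195, 3614 and 318 CPM in non-label-retaining cells. It was also the only core transcript among the 8 of 20 reference genes for quantitative PCR that had a row; Gapdh was found in 41 cells and Actg1 in 48. The chaperone Hsp90aa1 was found in 52 cells, at 670 to 1874 CPM in label-retaining cells and 4.25 to 2594 CPM in non-label-retaining cells.

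Chromatin and nuclear proteins gave the most members of any list, 5 of the 14 with a row: Ptma, Hmgb1, H3f3a, H3f3b and Nucks1. The DNA-bending protein Hmgb1 was found in 54 cells and stood at 1964, 2081, 885 and 337 CPM in label-retaining cells, against 652, 79.5, 29.7 and 43.1 CPM in non-label-retaining cells. H3f3a stood at 2182, 1177, 2119 and 1383 CPM in label-retaining cells, against 1850, 178, 3.75 and 10.8 CPM in non-label-retaining cells. By CPM both were higher in the label-retaining sum of each repeat, and both overlapped between the groups through non-label-retaining repeat 1. H3f3b, found in 61 cells, stood at 8950, 9491, 3613 and 862 CPM in label-retaining cells, against 9064, 661, 83.5 and 10398 CPM in non-label-retaining cells, with no common order. Prothymosin alpha, encoded by Ptma, was found in 59 cells at 1332 to 5240 CPM in label-retaining cells and 12.6 to 3450 CPM in non-label-retaining cells. Nucks1, a nuclear DNA-binding protein, was found in 53 cells at a median of 16.2 CPM.

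RNA-binding proteins gave 4 members of 18 genes with a row. Nucleolin, encoded by Ncl and needed for ribosome assembly, was found in 54 cells and stood at 697, 752, 2478 and 1603 CPM in label-retaining cells, against 190, 99.5, 3.38 and 88.7 CPM in non-label-retaining cells. Its groups did not overlap. The helicase Ddx5 was even over the label-retaining sums, at 861 to 1296 CPM, and ranged from 103 to 5625 CPM over the non-label-retaining sums. Single cells were not even, as label-retaining cells had 0 to 10037 counts of Ddx5. Rbm25 was likewise even over the label-retaining sums, at 848 to 1276 CPM, and ranged from 0 to 4126 CPM over the non-label-retaining sums. The splicing factor partner Luc7l2 was found in 61 cells. The translation list had 1 member of 6 genes with a row: Rack1, a scaffold on the small ribosomal subunit, at 1267 to 8533 CPM in label-retaining cells and 138 to 2032 CPM in non-label-retaining cells.

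Lysosome and autophagy genes gave 3 members of 12 with a row, and they were among the most abundant. Ctsd, the protease cathepsin D, was found in 34 of 37 label-retaining cells and in all 28 non-label-retaining cells. It stood at 13895, 10507, 1295 and 1422 CPM in label-retaining cells, against 5962, 1235, 2963 and 1794 CPM in non-label-retaining cells. Cd63, a tetraspanin of late endosomes, stood at 8436, 8580, 5521 and 11042 CPM in label-retaining cells, against 3829, 559, 3234 and 39.1 CPM in non-label-retaining cells, and the groups did not overlap. Sqstm1, the p62 receptor that carries ubiquitin-tagged cargo to autophagosomes, stood at 34558, 12311, 9941 and 235 CPM in label-retaining cells, against 16057, 1077, 9530 and 27.5 CPM in non-label-retaining cells. By CPM every repeat had the higher value in label-retaining cells, with wide overlap.

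Redox and glycolysis lists gave 2 members each, of 8 and 12 genes with a row. Gpx4, the peroxidase that clears lipid peroxides, stood at 1230, 1876, 912 and 193 CPM in label-retaining cells, against 651, 113, 10.2 and 1.32 CPM in non-label-retaining cells. Aldoa, the glycolytic aldolase, stood at 2659, 3461, 1862 and 518 CPM in label-retaining cells, against 1056, 356, 9.10 and 5.38 CPM in non-label-retaining cells. Either gene was higher in the label-retaining sum of each repeat, and each group's range reached into the other. Prdx6, a peroxiredoxin, ranged from 206 to 7207 CPM in label-retaining cells and from 1.13 to 9484 CPM in non-label-retaining cells. The glucose transporter gene Slc2a3 ranged from 23.0 to 596 CPM in label-retaining cells and from 73.6 to 1471 CPM in non-label-retaining cells.

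The cytoskeleton and traffic lists gave Arpc1b and Capza2, which nucleate and cap actin filaments, of 17 genes with a row, and Rhoa, Sec61a1 and Cltc of 26. Arpc1b was found in 60 cells, at 102 to 522 CPM in label-retaining cells and 47.8 to 294 CPM in non-label-retaining cells. Clathrin heavy chain, encoded by Cltc, stood at 1283, 731, 85.7 and 130 CPM in label-retaining cells, against 2327, 271, 6.42 and 12151 CPM in non-label-retaining cells, so 1 non-label-retaining sum stood far above the other 7. Calm2 was the only member of 10 calmodulin, 14-3-3 and G protein genes with a row, and the stress-induced Gadd45a the only one of 17 immediate early and stress genes. Of 6 tubulin and microtubule genes and 12 mitochondrial genes with a row, 0 were core transcripts.

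A number of genes known chiefly from other tissues met the rule as well; they were picked for mention after their values were seen. Tyr, the tyrosinase of pigment cells, was found in 51 cells and stood at 27.9, 42.0, 680 and 208 CPM in label-retaining cells, against 10.8, 7.44, 683 and 686 CPM in non-label-retaining cells. Sag, the arrestin of photoreceptors, was found in 58 cells and stood at 225, 32.0, 654 and 131 CPM in label-retaining cells, against 130, 739, 644 and 309 CPM in non-label-retaining cells. Fgf10, a growth factor of lung and limb mesenchyme, was found in 54 cells and stood at 2.00, 5.03, 97.7 and 167 CPM in label-retaining cells, against 5.33, 35.9, 402 and 72.0 CPM in non-label-retaining cells. In Tyr and Fgf10, too, repeats 1 and 2 were the lowest label-retaining sums, while in Sag they were not.

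Median counts behind those values were small. Tyr had a median of 38.8 counts in label-retaining cells and 1.13 in non-label-retaining cells, and Fgf10 of 6 counts in label-retaining cells and 1.5 in non-label-retaining cells. Tbata, a gene of thymus and testis, was found in 59 cells with a median of 5.00 counts in label-retaining cells and 5.63 in non-label-retaining cells. The connexin Gje1 of the eye lens was found in 59 cells, the chemokine receptor Cxcr2 of neutrophils in 59 and the extracellular matrix gene Fn1 in 58. The gene of the neutrophil list found in the most cells was found in 2, and that of the stroma list in 29.

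Detection differed between the groups as depth did. The number of core transcripts per cell averaged 145, 144, 144 and 139 in label-retaining repeats, against 119, 106, 143 and 119 in non-label-retaining repeats, which is 143 ± 2.70 against 122 ± 15.4 (mean ± SD over repeats, n = 4 each). The difference of 21.2 genes was 7.94 without the 4 cells under 10000 counts. After every cell of at least 10000 counts (37 label-retaining and 24 non-label-retaining) was thinned to 10000 counts, the means were 85.4 ± 14.4 in label-retaining cells and 84.5 ± 14.4 in non-label-retaining cells, a difference of 0.953 genes. No test was made, because the rule used detection. By comparison, the genes outside the set numbered 779 ± 233 per label-retaining cell and 496 ± 310 per non-label-retaining cell after the same thinning.

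Gene by gene, 145 of 155 core transcripts (93.5%) were found in a larger share of label-retaining than of non-label-retaining cells, and of 3460 genes found in at least 10 cells 95.3% were. After thinning the shares were 56.1% of core transcripts (87 genes) and 76.5% of all. All 155 core transcripts were found together in 8 cells, each label-retaining. The cell with 86 counts still showed 13 of them, with 6 counts of Slx1b, 2 each of Fau, Ddx5, Hmgb1 and Inpp4a, and at most 1 of the other 8.

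**Figure D3:**
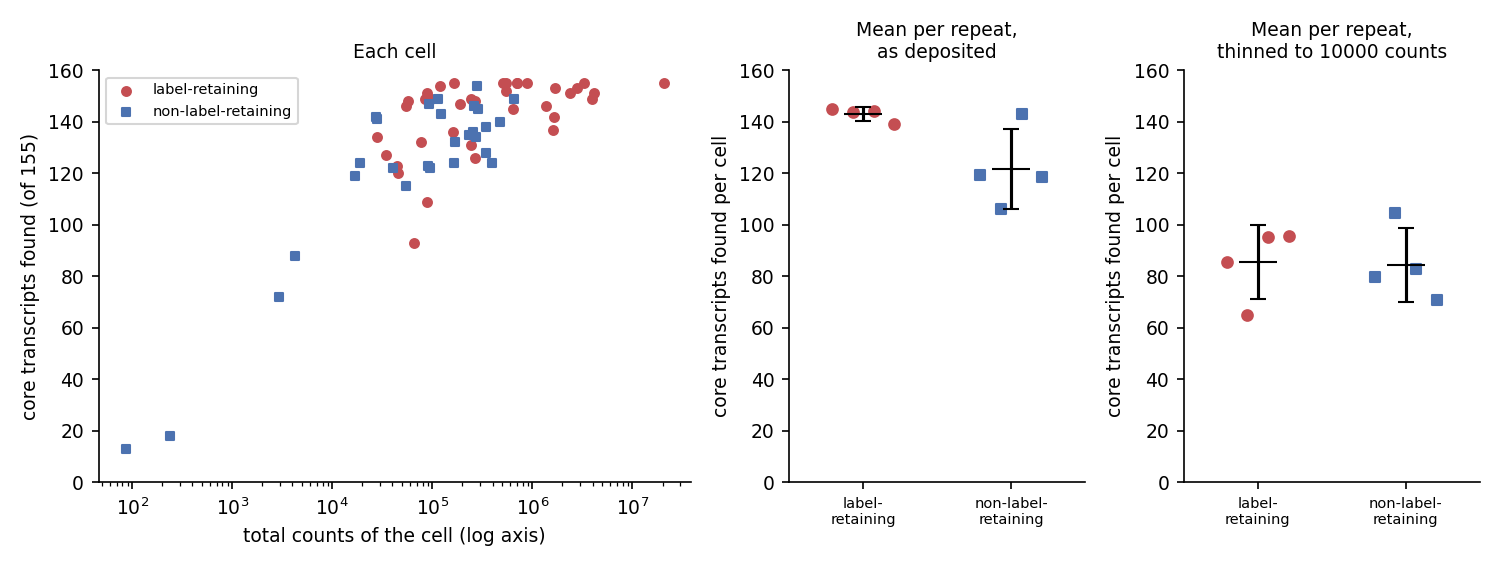
Number of core transcripts found in each cell against its total counts on a log axis (left), and the mean per repeat as deposited (middle) and after thinning to 10000 counts (right), label-retaining as circles left of non-label-retaining as squares, with mean and SD over 4 repeats. The 2 smallest cells show 13 and 18 genes, and the means of 143 and 122 genes become 85.4 and 84.5 after thinning.

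Stricter rules left a small set. Only 17 of the 155 were still found in the same share of cells after thinning, and only 14 had at least 10 counts in 50 cells. The 2 selections share 12 genes: Ctla2a, Kcnq1ot1, Gm10925, Slx1b, Tmf1, Bmt2, Alkbh5, Inpp4a, Ogfrl1, Plau, Tmppe and Lars2, the mitochondrial leucine tRNA ligase.

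Core transcripts held 17.4, 19.5, 18.5 and 24.1% of each cell's counts on average in label-retaining repeats, against 19.2, 19.5, 20.6 and 17.7% in non-label-retaining repeats. The mean share was 19.9 ± 2.94% in label-retaining cells, against 19.2 ± 1.21% in the other group (SD over repeats, n = 4 each). The share was higher in 2 of 4 repeats, and the difference of 0.658 percentage points was smaller than the spread of either group.

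The comparison of levels between the groups was made gene by gene. With edgeR's quasi-likelihood test on the 8 sums and Benjamini-Hochberg adjustment, 0 of 2786 genes passed an adjusted p of 0.05 (0%), among them 0 of the 147 core transcripts with enough counts to be tested. Their smallest adjusted p was 0.434. At an unadjusted p under 0.05, 0 core transcripts were higher in label-retaining cells, where 6.46% of all genes were, and 1 was lower, where 4.38% of all genes were. The share of lower genes depended on the fit: it was 1.54% of all genes and 0 core transcripts with total counts, 0.323% and 2 with the repeats as a block, and 0.538% and 3 with limma. Higher at an unadjusted p were 0 core transcripts in each of these 3 fits. Of all genes, 8.26% were with total counts, 7.61% with the block and 6.1% with limma. The 50 cells of the rule exceed the 37 label-retaining and the 28 non-label-retaining cells, so each member had to be found in both groups. The other tested genes did not have to be, so these shares are a description. The lower core transcript of the first fit was Cltc, with a log2 fold change of -5.50 ± 2.68 (SE; p = 0.0404, adjusted p = 0.434 in edgeR), which rested on non-label-retaining repeat 4. Without that sum the log2 fold change of Cltc was -1.45 (edgeR, p = 0.495), and with the repeats as a block it was -0.704 (edgeR, p = 0.806). Among the 8 core transcripts not tested were 2700097O09Rik, 9030612E09Rik, Alg11, BC024978, Gm17767, Tbata and Usp37.

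The 6 members with the smallest p among those higher in all 4 repeats were Ncl, Aldoa, Gpx4, Trip12, Hmgb1 and Saraf, and none passed the test. The log2 fold change was 2.60 ± 2.34 for Ncl (edgeR, p = 0.265, adjusted p = 0.601) and 2.32 ± 2.34 for Aldoa (edgeR, p = 0.321, adjusted p = 0.637). Trip12, a ubiquitin ligase, stood at 240, 257, 192 and 227 CPM in label-retaining cells, against 17.0, 107, 7.80 and 8.50 CPM in non-label-retaining cells, and the groups did not overlap. Saraf, a regulator of store-operated calcium entry, stood at 5427, 5289, 1217 and 99.8 CPM in label-retaining cells, against 1764, 451, 199 and 14.7 CPM in non-label-retaining cells. Its order held within each repeat and not across them.

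The 6 with the smallest p among those lower in all 4 repeats were Inpp5f, Paip1, Ppm1k, Dpf1, Ankfy1 and Tmppe. Inpp5f, a phosphoinositide phosphatase, stood at 13.0, 9.50, 103 and 230 CPM in label-retaining cells, against 22.8, 179, 210 and 1335 CPM in non-label-retaining cells, a log2 fold change of -4.79 ± 2.63 (edgeR, p = 0.0684, adjusted p = 0.474). Dpf1, a subunit of neuronal chromatin remodelling complexes, stood at 2.71, 9.37, 38.6 and 44.6 CPM in label-retaining cells, against 82.0, 231, 68.1 and 51.7 CPM in non-label-retaining cells. Its groups did not overlap, and it was the only tested gene of 2786 (0.0359%) that lay wholly lower in label-retaining cells.

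For the other 5 of these genes the groups overlapped, and the values of Tmppe are given above. Paip1, which binds the poly(A)-binding protein, stood at 2.10, 10.4, 73.7 and 157 CPM in label-retaining cells, against 48.9, 59.0, 61.1 and 413 CPM in non-label-retaining cells. Ppm1k, a mitochondrial phosphatase of branched-chain amino acid breakdown, stood at 5.29, 5.86, 42.2 and 95.4 CPM in label-retaining cells, against 17.0, 39.0, 228 and 54.0 CPM in non-label-retaining cells. Ankfy1, an endosomal protein, stood at 51.2, 56.7, 544 and 177 CPM in label-retaining cells, against 136, 66.7, 1487 and 515 CPM in non-label-retaining cells. Paip1 and Ppm1k were lower in all 4 repeats after TMM scaling only, and in 3 of 4 by plain CPM. The groups lay apart, higher in label-retaining cells, for 3 tested core transcripts (Cd63, Ncl and Trip12), where 6.82% of all tested genes did. The limit that the rule sets, given above, holds for this comparison as well.

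Directions depended on how the sums were scaled. TMM, which sets the sums to a common level over most genes, gave scaling factors between 1.44 and 2.04 except for 0.290 and 0.223 in the non-label-retaining sums 3 and 4. With it the median log2 fold change was -1.95 over the 147 core transcripts and 1.15 over all tested genes, a gap of -3.10, and 19 core transcripts were above 0. With total counts the medians were -0.315 and 1.78, a gap of -2.10, and 59 core transcripts were above 0. Relative to the median of all genes, 139 of 147 core transcripts were lower with TMM and 134 with total counts. Membership required detection in both groups, which testing did not, so the gap is not independent of the rule. Under DESeq2, 46 of 135 core transcripts had an unadjusted p under 0.05 and were lower, against 6.61% of the 2088 genes it gave a p. At the same unadjusted p, 0 core transcripts were higher, against 204 of those 2088 genes. With its adjusted p 0 core transcripts passed, as against 0.527% of all. The 2 lower core transcripts of the block fit, where 0.323% of all genes were lower, were Prr15 and Dpf1 (edgeR, p = 0.0463 and 0.0354, adjusted p = 0.594 for both).

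**Figure D4:**
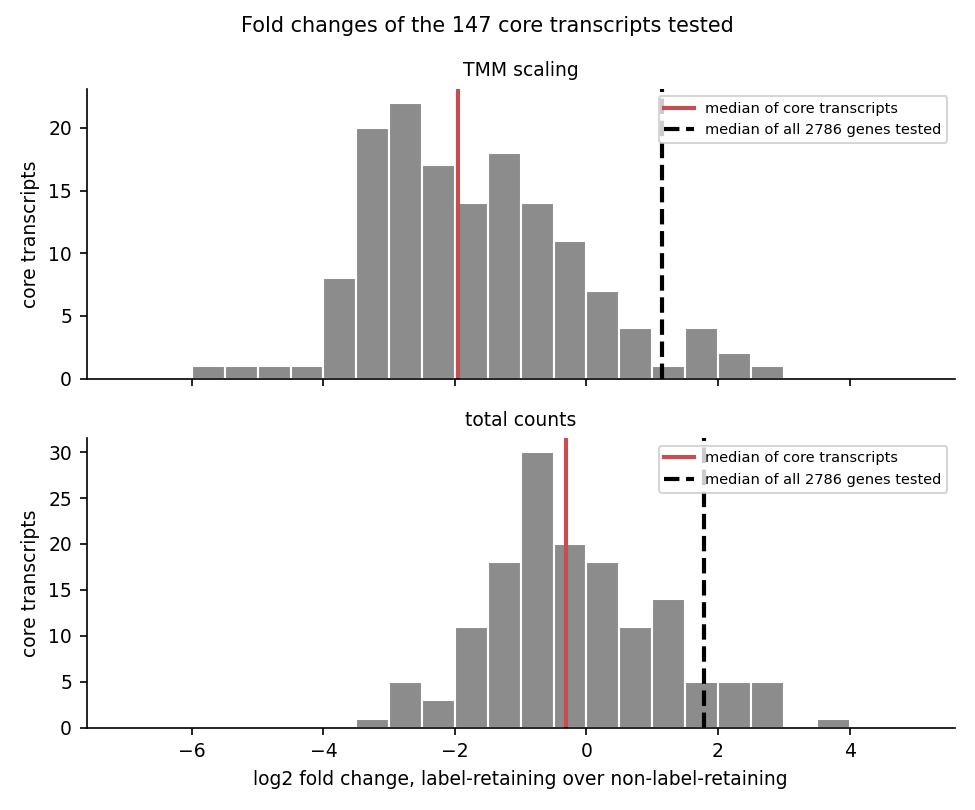
Number of core transcripts by log2 fold change, label-retaining over non-label-retaining, with TMM scaling (top) and total counts (bottom). The solid line is the median of the 147 core transcripts (-1.95 and -0.315) and the dashed line that of all 2786 genes tested (1.15 and 1.78).

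Core transcripts varied widely among single cells. Over the 61 cells with at least 10000 counts, the SD of log2(CPM + 1) had a median of 3.06 over the 155 genes (range 2.10 to 4.78), against 2.93 over genes found in at least 10 cells. Within a repeat and group the median over core transcripts was 1.89 to 3.07, against 1.06 to 3.00 over the same comparison genes. The core median was lower in label-retaining repeats 1 and 3 and higher in the other 6 sums, by most in non-label-retaining repeat 4 (2.42 against 1.06). Comparison genes had to be found in 10 cells only and could be missing from every cell of a sum, which leaves no spread there. Over all cells of non-label-retaining repeat 4, an average of 683 genes was found per cell, while the comparison genes numbered 3460. Core transcripts were chosen by detection in most cells, so these comparisons of SD are not independent of the rule and are a description. The part of detection in them was not tested. The most even genes were BC024978 (SD 2.10), Ogfrl1 (2.19), the deubiquitinase Usp37 (2.25), the transcription factor Klf13 (2.26) and the lysosomal cobalamin transporter Lmbrd1 (2.26). BC024978 and Usp37 were also scarce, with medians of 2 and 2.5 counts. Klf13 stood at 668, 288, 31.9 and 99.2 CPM in label-retaining cells, against 282, 115, 58.7 and 41.2 CPM in non-label-retaining cells. Lmbrd1 stood at 485, 631, 256 and 261 CPM in label-retaining cells, against 305, 963, 63.4 and 45.7 CPM in non-label-retaining cells.

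At the other end were Prdx6 (SD 4.78), the nucleic acid-binding protein gene Cnbp (4.73), the autophagy receptor Tax1bp1 (4.70), Sqstm1 (4.68) and Rgs1, which dampens G protein signals (4.57). They were all but absent in some cells and among the strongest transcripts in others. Cnbp stood at 6976, 6826, 603 and 1112 CPM in label-retaining cells, against 10328, 472, 773 and 1497 CPM in non-label-retaining cells. Tax1bp1 stood at 875, 4725, 769 and 22379 CPM in label-retaining cells, against 154, 318, 3284 and 21687 CPM in non-label-retaining cells. Rgs1 stood at 391, 8990, 777 and 547 CPM in label-retaining cells, against 914, 1251, 1053 and 1126 CPM in non-label-retaining cells. In all 3 genes the groups overlapped. Of the role-list members, Calm2 (4.45), Ppia (4.45), Ubb (4.38), H3f3b (4.33), Cd63 (4.33), Rack1 (4.33) and Aldoa (4.31) also lay near the top.

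How far a gene's count went with the cell's total differed as well. Across the 61 cells, which share the total as a common term, Spearman's rho of count with total had a median of 0.459 over core transcripts, against 0.247 over genes found in at least 10 cells, and is given as a description. It was 0.758 for Gm10925 and 0.703 for Ctla2a, and -0.120 for Dpf1, -0.0369 for Inpp4a, -0.0173 for Slx1b and 0.0993 for Plau. Inpp4a, Slx1b and Plau thus had about as many counts in shallow as in deep cells.

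**Figure D5:**
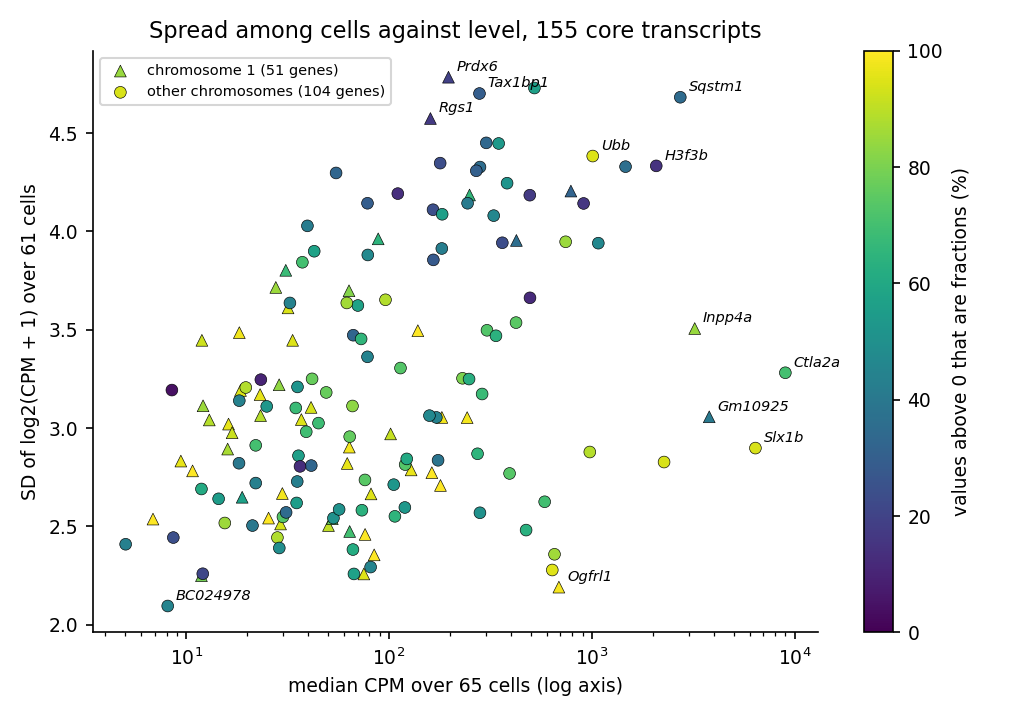
SD of log2(CPM + 1) over 61 cells against the median CPM over 65 cells (log axis) for the 155 core transcripts, coloured by the percentage of values above 0 that are fractions. Triangles are the 51 genes of chromosome 1. Prdx6, Sqstm1, Ubb and H3f3b lie at 4.78, 4.68, 4.38 and 4.33, and Ogfrl1 and BC024978 at 2.19 and 2.10.

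Many core transcripts shared 2 features, their place in the genome and the form of their values. The rule counted any value above 0 as found, fractions of a read included. The form of the values was therefore not independent of the rule. On chromosome 1 lay 51 of the 155, which is 6.8% of the 750 named genes with any count there. On all other chromosomes 104 of 5978 genes (1.74%) were core transcripts. The genes with any count covered the genome unevenly. Several chromosomes held none of them, and chromosome 14 held only 91. Values that are not whole (by more than 0.0001) are seen, for example, when a read is shared out between genes. Of its values above 0, a core transcript had a median of 65.0% that were fractions, against 23.1% for genes found in at least 10 cells. On chromosome 1 the medians were 93.4% for core transcripts and 42.9% for genes found in at least 10 cells, and on other chromosomes 53.1% and 21.7%. Dst, Nav1, Lman2l, Qsox1, Ppp1r7, Ncoa2, Mfsd4a and Ptpn7, all on chromosome 1, had 100% fractions, and Ogfrl1 98.5%. At the low end were the histone gene H3f3b (14.8%), Rhoa (13.5%), Camk4 (12.5%), Lars2 (11.9%), Mcur1 (10%) and Zmat2 (4%). The part of shared reads in the detection was not tested.

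Sequence shared with other genes was measured as the share of 50-base windows of a gene's GENCODE transcripts that also occur in transcripts of another gene. The median was 1.93% over core transcripts and 0.807% over genes with any count, and 21 core transcripts had no shared window. Above 50% were Gm10925 (100%, with mt-Atp6), Ctla2b (69.0%, most with Gm49391) and Gm15645 (68.8%). Ubb (48.1%), Hsp90aa1 (47.5%), Slc38a6 (35.5%), Gpx4 (34.7%), Ctsd (32.4%), Atg9a (30.5%) and Fau (30.0%) followed, with Gm1821, Gm12346, Noct, Gpx4-ps2, Gm49369, Gm29253 and Gm9843 as the genes that shared the most windows with each, and their counts are uncertain to that extent. Ctla2a shared 25.8% of its windows, and Gm49391 was again the gene that shared the most. Gm20594, a gene of 449 transcript bases on chromosome 6, shared a run of 65 bases with the mitochondrial ribosomal RNA gene mt-Rnr2. Inpp4a, Plau and Tmf1 shared 0% of windows, and 84.6, 69.8 and 93.8% of their values were fractions. Slx1b, found in every cell, shared 15.1% of windows, the most with Bola2, and 93.8% of its values were fractions.

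Promoter windows were available for 119 of the 155 genes in RefSeq (GRCm38.p6; 250 bases before to 50 after the first start listed; GGGCGG and CCAAT were searched on both strands, and matches may overlap). Their median GC content was 62.0%, against 59.7% over 5230 genes with any count, and the ratio of observed to expected CpG was 0.799 against 0.737. GGGCGG, the GC box bound by Sp factors, occurred on either strand in 62.2% of core promoters and 58.8% of all, and CCAAT in 36.1% and 39.2%. TATAAA in the 50 bases before the start was rare in both, at 1.68% (2 genes) and 2.08%. A start of C followed by 4 pyrimidines, as in TOP messages of the translation machinery, occurred in 5.04% of core promoters (6 genes) and 2.64% of all.

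To show such starts, 6 windows of 110 bases are given, from 100 bases before the start to 10 from the start on, with these motifs in capitals and RefSeq GRCm38.p6 coordinates. Ppia and H3f3b are the 2 with TATAAA, Rack1, Fau and Slx1b are 3 of those with a pyrimidine start, and Inpp4a, like Slx1b, was found in every cell.
Ppia (chr11:6415767-6415876, plus strand): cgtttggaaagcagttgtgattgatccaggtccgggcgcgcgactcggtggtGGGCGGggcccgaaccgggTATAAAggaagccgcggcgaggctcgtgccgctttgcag
H3f3b (chr11:116024495-116024604, minus strand): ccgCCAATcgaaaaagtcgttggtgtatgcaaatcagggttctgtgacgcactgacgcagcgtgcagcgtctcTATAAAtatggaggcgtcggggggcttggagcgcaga
Rack1 (chr11:48800260-48800369, plus strand): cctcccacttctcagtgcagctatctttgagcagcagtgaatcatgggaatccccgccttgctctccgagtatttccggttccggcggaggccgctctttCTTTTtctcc
Fau (chr19:6057847-6057956, plus strand): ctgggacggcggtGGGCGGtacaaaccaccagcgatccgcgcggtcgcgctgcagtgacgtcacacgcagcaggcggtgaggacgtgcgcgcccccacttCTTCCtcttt
Slx1b (chr7:126695774-126695883, minus strand): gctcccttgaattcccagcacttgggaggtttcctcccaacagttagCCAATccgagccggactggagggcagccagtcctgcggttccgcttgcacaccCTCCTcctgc
Inpp4a (chr1:37299738-37299847, plus strand): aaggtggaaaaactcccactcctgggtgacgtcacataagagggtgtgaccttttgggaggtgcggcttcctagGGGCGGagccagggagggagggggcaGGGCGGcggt

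A match to these letters is a description of the window, and nothing was inferred from it about the factors that bind them.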

How the data were processed

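The measurement was full-length single-cell RNA-seq (SMART-Seq v4 cDNA, Nextera XT libraries, per the labels' protocols) of 65 cells. The authors deposited a table of estimated counts for each gene in every cell, on the mm10 build per the submitters' processing notes. The submitters' processing notes name DESeq, but sums per cell run from 86 to 20516069, so the values were taken to be unscaled. Neither the aligner nor the counter and its annotation is given in the sources used here. The table covers a part of the genome, so totals and shares are over that part, and 0 columns of samples were left unused.

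NCBI gene identifiers were matched to RefSeq for GRCm38.p6, and 1820 of 18036 rows had no match and could not enter the set. Since cells are not replicates, their counts were added within a repeat and group, rounded, and tested with edgeR 4.0.16 (R 4.3.3; quasi-likelihood, TMM, robust fit, Benjamini-Hochberg adjustment, threshold 0.05). A gene was tested when found in at least 10 cells with an average count of 10 or more (mean of the 8 group means), and 147 of the 155 members passed. Whether the 4 repeats are separate mice is not stated, so p-values measure the spread between these repeats. Same-numbered sums of the groups deviated together (correlations 0.563, 0.268, 0.175 and 0.153), so the labels' repeat numbers were taken to pair the samples. Label-retaining repeat 4, however, correlated best with non-label-retaining repeat 3. The main edgeR fit, DESeq2 and limma did not use this pairing, and only the replicate block did. DESeq2 1.42.0, limma 3.58.1 on log2(CPM + 1), total counts, no filter, the replicate block, left-out repeats and left-out cells were alternatives. On simulated data the edgeR test recovered changed genes at a small spread between sums but not at the spread estimated here, so an absence of calls does not show equal levels. Thinning drew 10000 rounded counts per cell without replacement. PCR copies cannot be told from molecules here.

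Windows of 50 bases were compared between GENCODE M21 transcripts, on both strands. Full values were given for the 12 members found in the most cells, the 6 with the smallest p in each direction with 1 sign in 4 repeats, the 5 most and 5 least even, and 5 in exactly 50 cells; members of role lists and genes picked after seeing values were added. The members and lists were chosen with earlier results of these data known. Protein lengths, also planned, are not used here.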

Additional observations from a re-analysis of the deposited data

Results flagged for a closer look

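Among 78 sets of 4 repeats looked at (the named genes in each group, the number of core transcripts and their share of counts), 1 had a repeat far from the other 3, where chance gives about 1 in 20. Paip1, which binds the poly(A)-binding protein, stood at 48.9, 59.0, 61.1 and 413 CPM in non-label-retaining repeats 1 to 4. On the log2(CPM + 1) scale the gap between repeat 4 and its nearest neighbour made up 0.897 of the range, above the 95% critical value for 4 values.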

How the results depend on the processing

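The size of the set depended on its definition. It held 249 genes at 45 of 65 cells, 83 at 55, 14 with at least 10 counts, 17 after thinning to 10000 counts and 193 in cells of at least 10000 counts, against 155. DESeq2 called 11 of all genes, against 0 for edgeR, limma and every other setting, and 0 core transcripts in each. The median log2 fold change of core transcripts (-1.95) was -0.315 with total counts and -0.695 with no filter, and -1.23 to -2.72 without 1 repeat or sum; with the replicate block it was -1.53 and changed no adjusted call. At an unadjusted p the block gave 2 lower core transcripts (0.323% of all genes were lower) and limma 3 (0.538%). The difference in core transcripts per cell (21.2) was 0.95 after thinning and 15.71 to 27.93 without 1 repeat. That in their share of counts was -1.26 to 1.59 percentage points without 1 repeat, and its sign turned without repeat 4. The median SD among cells (3.06) was 2.32 with a pseudocount of 10 and 4.25 after thinning. The causes were not tested. The fold changes of Cltc, Ncl, Aldoa, Inpp5f, Dpf1 and Prr15 kept their sign in all settings run. Depth limits detection: a gene not found in a shallow cell may be present.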

Other observations

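Genes in common use as references for quantitative PCR differed in how often they were found. Gapdh of glycolysis was found in 29 label-retaining cells (of 37) and 12 non-label-retaining cells (of 28). In the same order, the actin gene Actg1 was found in 30 and 18 cells, the antizyme gene Oaz1 in 26 and 11, Sdha of the respiratory chain in 23 and 6, and the RNA polymerase subunit Polr2a in 8 and 2. Actb, which the symbol rule left out, was found in 37 and 27 cells. The cells differ in depth between the groups, and no test was made on these numbers.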
